A study of Mus musculus with 4 samples.

Results

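Matrix metalloproteinases are secreted or membrane-bound zinc proteases that cut collagens, gelatin, proteoglycans and other matrix proteins, and tissue inhibitors of metalloproteinases (TIMPs) are the small secreted proteins that bind and block them. Tumour cells and the stroma around them both make these enzymes, and the family is known for its part in invasion and in the release of matrix-bound growth factors. Many of the secreted metalloproteinases are made only after a signal such as an inflammatory cytokine or a growth factor, while several membrane-type enzymes and TIMPs are made steadily. The 10 genes described here are the collagenase Mmp13, the stromelysins Mmp3 and Mmp10, the gelatinases Mmp9 and Mmp2, the membrane-type enzyme Mmp14, the matrilysin Mmp7 and the inhibitors Timp1, Timp2 and Timp3. They were matched by gene symbol, and the set was chosen with earlier results of these data known. All 10 were found among the 22180 genes with a probe set of a single symbol. They had 11 probe sets, called probes here, of which 2 belonged to Mmp7 and 1 to each of the others.

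RNA was measured in 4T1 cells, a mouse mammary carcinoma line. The shLDHA cells carried a short hairpin RNA against Ldha, which encodes lactate dehydrogenase A, the enzyme that turns pyruvate into lactate. Puromycin at 10 µg/ml had selected the cells that took up this hairpin, and these were then pooled, so they were a mixed population and not a clone. The scramble cells carried a hairpin with a scrambled sequence, and the labels give no selection for them, so knockdown and selection cannot be told apart. Both were grown in culture in complete medium for 24 hours, and Affymetrix whole-transcript arrays were run from 400 ng of total RNA each, 2 arrays per group and 4 in all. The labels do not state separate cultures for the 2 replicates of a group, so the spread behind each p-value is that between these arrays and may be technical. Values are log2 expression after RMA, the usual background correction, normalization and probe summary for these arrays, and a change is shLDHA minus scramble on that scale. A gene passed at an adjusted p under 0.05 in limma's test over all genes.

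The targeted gene was lower in the knockdown but not lost. Ldha read 6.31 and 6.15 on the shLDHA arrays, against 6.69 and 6.96 on the scramble arrays, a log2 change of -0.59 (SE 0.12, limma adjusted p = 0.0390). The adjusted p was 0.0965 without shLDHA replicate 1, 0.163 without shLDHA replicate 2 and 0.128 without scramble replicate 2, so the call was then lost, and it held without scramble replicate 1 (log2 change -0.73, adjusted p = 0.0297). The epithelial markers Krt8, Krt18, Epcam and Cdh1, which define carcinoma cells of this kind, were bright in both groups, between 8.97 and 10.50 on the shLDHA arrays and between 8.45 and 10.31 on the scramble arrays. Of 8 epithelial markers, Krt8 and Epcam were higher and Cldn7 was lower in shLDHA, and the calls of Krt8 and Epcam were lost without any 1 of the 4 arrays. Cldn7 was dimmer, at 5.08 and 4.98 in shLDHA and 6.12 and 6.06 in scramble (log2 change -1.06). It passed in all 13 alternative settings. Krt19 read 6.43 and 6.43 in shLDHA and 6.82 and 6.70 in scramble (-0.33) and did not pass. At an unadjusted p under 0.05 in limma's test, 7 of the 8 markers passed, beside 21.5% of all genes. Of all genes, 1410 passed (6.36%), 663 lower (2.99%) and 747 higher (3.37%) in shLDHA. To mark dim signal, levels are set beside 4.19, the level under which 95% of the 1105 olfactory receptor genes lay.

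The members that fell lie in one gene cluster, and the stretches just upstream of their transcript starts are shown here because they share a short element. RefSeq promoter windows of build GRCm38.p6 matched 8 of the 10 members, not Mmp2 and Mmp9. The 120 bases upstream of the start are printed 5′ to 3′ for the 3 members that fell and for Mmp7, the member of the same cluster that did not pass. All 4 are on the plus strand. Capitals mark the AP-1 motif, spelled TGANTCA and searched on both strands, which is the letter pattern bound by Fos and Jun family dimers.
Mmp13 (chr9:7272394-7272513): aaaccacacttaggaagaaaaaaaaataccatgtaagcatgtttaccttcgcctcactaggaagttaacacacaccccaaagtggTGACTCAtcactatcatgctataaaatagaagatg
Mmp3 (chr9:7445702-7445821): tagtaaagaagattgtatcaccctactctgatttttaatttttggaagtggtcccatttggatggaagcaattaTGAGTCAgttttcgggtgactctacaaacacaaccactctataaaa
Mmp10 (chr9:7502222-7502341): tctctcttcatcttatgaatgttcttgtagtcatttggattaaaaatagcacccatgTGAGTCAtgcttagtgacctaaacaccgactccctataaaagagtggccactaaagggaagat
Mmp7 (chr9:7691970-7692089): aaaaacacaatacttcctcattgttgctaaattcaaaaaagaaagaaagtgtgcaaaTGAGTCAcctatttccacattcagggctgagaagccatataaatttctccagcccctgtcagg

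The collagenase and both stromelysins fell in the Ldha knockdown, and no other member passed in either direction. Mmp13 fell by a factor of 9.30, Mmp3 by a factor of 3.55 and Mmp10 by a factor of 1.43. Of the 10 members, 3 passed lower and 0 higher, beside 2.99% and 3.37% of all genes. The median change was -0.01 over the 10 members and 0.01 over all genes. The count was 2 lower and 0 higher without each of the 4 arrays in turn, because Mmp10 was then lost.

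**Figure D1:**
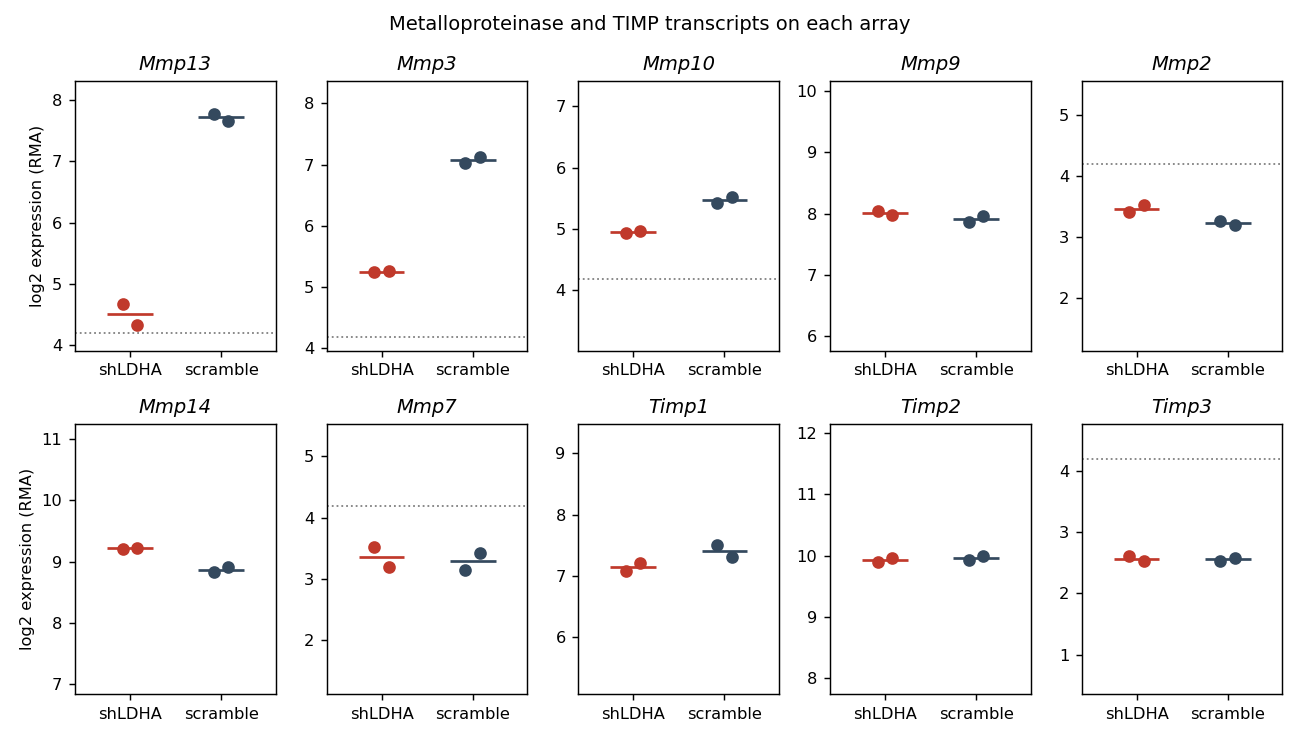
Log2 expression of the 10 members on each array, with 1 panel per gene, points for the 2 arrays of shLDHA (red, left) and the 2 of scramble (dark, right), bars at the group means, and the same span on every vertical axis. The dotted line is the olfactory receptor mark of 4.19. Mmp13 and Mmp3 are separated by far more than their replicates, and Mmp2, Mmp7 and Timp3 lie under the mark in both groups.

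Mmp13 encodes collagenase 3, the main interstitial collagenase of the mouse, which cuts fibrillar collagen. It read 4.67 and 4.34 on the shLDHA arrays and 7.78 and 7.66 on the scramble arrays. Both shLDHA arrays were far below both scramble arrays. The means were 4.50 ± 0.23 in shLDHA and 7.72 ± 0.08 in scramble (SD, n = 2 each), a log2 change of -3.22 (SE 0.13, 95% interval -3.52 to -2.92, limma adjusted p = 0.000164). This was the 4th largest fall among the 22180 genes. The shLDHA level lay just above the olfactory receptor mark, where array signal is compressed, so the fold may understate the change. Mmp13 passed in all 13 alternative settings, with changes between -3.38 and -3.05.

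Mmp3 encodes stromelysin 1, which cuts proteoglycans, laminin and fibronectin and can activate other metalloproteinase proforms. It read 5.24 and 5.26 on the shLDHA arrays and 7.02 and 7.13 on the scramble arrays, with no overlap. The means were 5.25 ± 0.01 in shLDHA and 7.08 ± 0.08 in scramble (SD, n = 2 each). The log2 change was -1.83 (SE 0.09, 95% interval -2.03 to -1.62, limma adjusted p = 0.000336), the 24th largest fall of all genes. It passed in all 13 alternative settings, between -1.88 and -1.77.

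Mmp10 encodes stromelysin 2, a close relative of stromelysin 1 with a similar range of substrates. It read 4.94 and 4.97 on the shLDHA arrays and 5.42 and 5.53 on the scramble arrays. The groups did not overlap, but the gap was small beside those of Mmp13 and Mmp3. The log2 change was -0.52 (SE 0.09, 95% interval -0.73 to -0.31, limma adjusted p = 0.0212). The call was lost without any 1 of the 4 arrays, with adjusted p between 0.0552 and 0.0981, and when every probe of the array was tested (0.118), while the change stayed between -0.57 and -0.47. Mmp3 and Mmp10 are related in sequence, and whether the Mmp10 probe also binds Mmp3 RNA was not tested.

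The gelatinases cut denatured collagen and the collagen of basement membranes. Mmp9, gelatinase B, read 8.05 and 7.98 on the shLDHA arrays and 7.87 and 7.96 on the scramble arrays. The 4 values lay within a narrow band, and the log2 change of 0.10 (SE 0.09, 95% interval -0.10 to 0.31) did not pass (limma adjusted p = 0.573). The lower bound of that interval lay above the falls of Mmp3 and Mmp10. Mmp2, gelatinase A, read 3.41 and 3.52 on the shLDHA arrays and 3.27 and 3.20 on the scramble arrays. Its shLDHA arrays were both the higher ones, but all 4 lay under the olfactory receptor mark, and the log2 change of 0.23 (SE 0.09) did not pass (limma adjusted p = 0.197).

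Mmp14 encodes membrane-type 1 metalloproteinase, a collagenase anchored at the cell surface that activates pro-MMP2 together with TIMP2. It read 9.21 and 9.23 on the shLDHA arrays and 8.83 and 8.91 on the scramble arrays. Both shLDHA arrays were above both scramble arrays, opposite in direction to the secreted collagenase Mmp13. The log2 change of 0.35 (SE 0.08, 95% interval 0.15 to 0.55) missed the threshold (limma adjusted p = 0.0653). It passed in 3 of the 13 alternative settings, namely among genes at or above the median level (0.0162), among genes above the 25th percentile of level (0.0451) and with a variance trend in limma (0.00332).

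Mmp7, the small metalloproteinase matrilysin, read 3.52 and 3.20 on the shLDHA arrays and 3.15 and 3.43 on the scramble arrays. The groups overlapped and lay under the olfactory receptor mark (log2 change 0.07, SE 0.14, limma adjusted p = 0.843). Its second, dimmer probe read 2.44 and 2.49 in shLDHA and 2.34 and 2.91 in scramble. Neither probe separated the groups.

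None of the 3 inhibitors passed. Timp1, the soluble inhibitor often induced in tumours and inflammation, read 7.08 and 7.21 on the shLDHA arrays and 7.50 and 7.31 on the scramble arrays. Both shLDHA arrays were the lower ones, and the log2 change was -0.26 (SE 0.10, 95% interval -0.51 to -0.02, limma adjusted p = 0.206). Timp2, which also takes part in the activation of pro-MMP2, read 9.89 and 9.95 in shLDHA and 9.93 and 9.99 in scramble. The groups overlapped, and the log2 change of -0.04 (SE 0.08, 95% interval -0.24 to 0.16) had a limma adjusted p of 0.857. Timp3, the inhibitor held in the matrix, read 2.60 and 2.53 in shLDHA and 2.53 and 2.58 in scramble, all under the olfactory receptor mark, with a log2 change of 0.01 (SE 0.08, limma adjusted p = 0.970). Counted by overlap alone, 4 members had both shLDHA arrays below both scramble arrays, namely Mmp13, Mmp3, Mmp10 and Timp1, beside 24.0% of all genes. Another 3, Mmp14, Mmp9 and Mmp2, had both above, beside 26.2% of all genes. At an unadjusted p under 0.05 in limma's test, 6 of the 10 members passed, beside 21.5% of all genes. These were Mmp13, Mmp3, Mmp10, Mmp2, Mmp14 and Timp1.

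**Figure D2:**
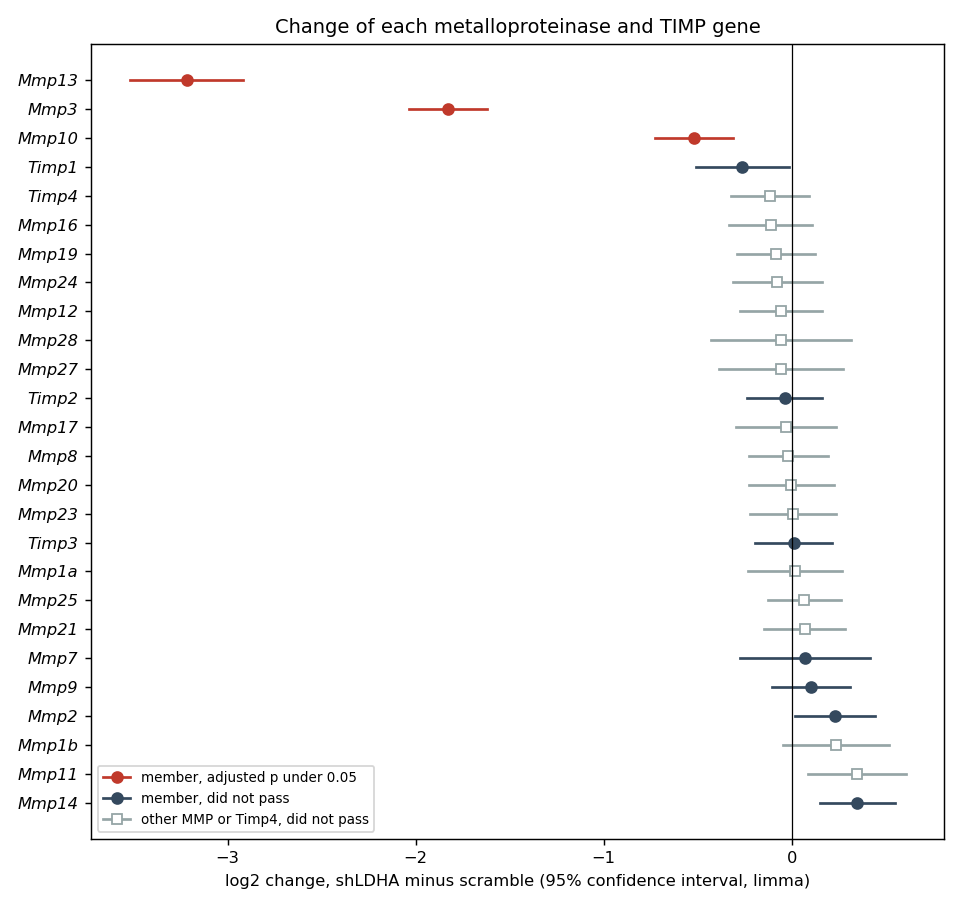
Log2 change (shLDHA minus scramble) of the 26 tested metalloproteinase and TIMP genes, with limma's 95% interval as a line. Circles are the 10 members (red where the adjusted p was under 0.05) and open squares the other 16 genes of the family. Mmp13, Mmp3 and Mmp10 stand to the left of 0, from -3.22 to -0.52, and the other intervals lie between -0.51 and 0.61.

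The rest of the family gave no call. Of 17 other metalloproteinase and TIMP genes listed, 16 were tested, with Mmp15 not analysed here. In limma's test 0 of the 16 passed in either direction at an adjusted p under 0.05, beside 6.36% of all genes. At an unadjusted p under 0.05, 1 of these 16 passed, Mmp11, beside 21.5% of all genes. Their median change was -0.02. Under the olfactory receptor mark in both groups lay 13 of the 16, so most of this family gave only dim signal in these cells. Mmp11, stromelysin 3, which differs from the other stromelysins in being activated inside the cell by furin-type proteases, read 5.63 and 5.84 on the shLDHA arrays and 5.31 and 5.46 on the scramble arrays. Its log2 change of 0.35 (SE 0.11) did not pass (limma adjusted p = 0.128), and its dimmer second probe read 4.54 and 4.63 in shLDHA and 4.71 and 4.62 in scramble. Mmp19 (-0.09) and the membrane-type Mmp24 (-0.08) did not pass either. Elsewhere in the genome, Mmp16, Mmp17, Mmp21, Mmp23, Mmp25, Mmp28 and Timp4 had log2 changes between -0.12 and 0.07, and all 7 lay under the mark in both groups. A separate probe annotated to both Mmp24 and BC029722, picked out after its values were seen and not part of the test, read 5.14 and 5.21 in shLDHA and 5.98 and 5.93 in scramble, and which of the 2 genes it reports is not known.

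Mmp13, Mmp3 and Mmp10 belong to a cluster of 10 metalloproteinase genes side by side on mouse chromosome 9. In RefSeq order the cluster runs Mmp13, Mmp12, Mmp1b, Mmp3, Mmp1a, Mmp10, Mmp8, Mmp27, Mmp20 and Mmp7, with no tested gene of another kind between them. The 3 genes that fell are not direct neighbours, since Mmp12 and Mmp1b lie between Mmp13 and Mmp3, and Mmp1a lies between Mmp3 and Mmp10. The other 7 genes of the cluster, which include the collagenase-like pair Mmp1a and Mmp1b, the neutrophil collagenase Mmp8, the macrophage elastase Mmp12 and the tooth enamel protease Mmp20, did not pass. Their log2 changes ran from -0.06 to 0.24. All 7 lay under the olfactory receptor mark in both groups, with means of 2.13 to 3.36 in shLDHA and 2.11 to 3.29 in scramble. The 3 cluster genes above the mark were thus the 3 that fell, and signal as dim as that of the other 7 is compressed on arrays, so a fall there would be hard to see.

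Of the 4 tested genes on each side of the cluster, 7 did not pass. The exception was Birc3, an inhibitor of apoptosis and a known NF-kB target, which read 5.60 and 5.56 in shLDHA and 6.19 and 6.05 in scramble (log2 change -0.54, SE 0.09, limma adjusted p = 0.0223). It passed in 9 of 13 alternative settings. The call was lost when every probe was tested, without scramble replicate 1 and without either shLDHA replicate. Beside this call, 6.36% of all genes passed. The nearest genes on the outer sides did not pass, with Dcun1d5 beside Mmp13 at -0.20 (SE 0.10) and Tmem123 beside Mmp7 at -0.17 (SE 0.08). These flanking genes were chosen by position after the values were known.

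**Figure D3:**
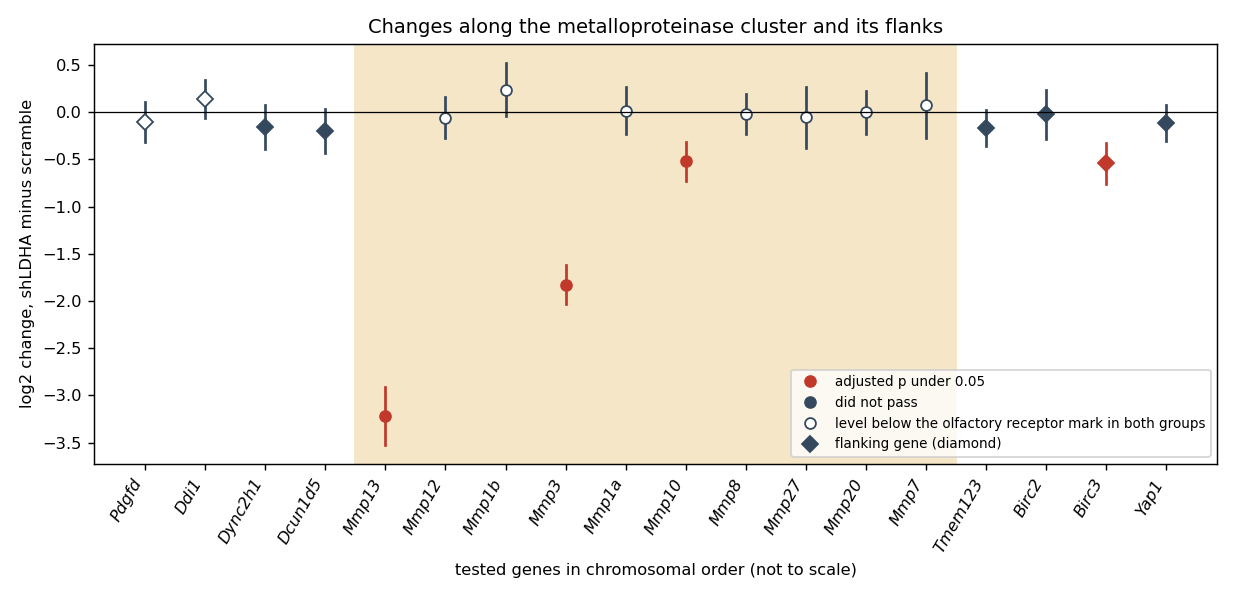
Log2 change (shLDHA minus scramble) of the 10 cluster genes (shaded, circles) and the 4 tested genes on each side (diamonds), in chromosomal order and not to scale, with limma's 95% interval as a line. Red marks an adjusted p under 0.05, and open symbols a level under 4.19 in both groups. Mmp13, Mmp3, Mmp10 and the flanking Birc3 are red, and the 7 other cluster genes are open and near 0.

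In the printed sequences, each of the 4 genes had 1 AP-1 motif. Counted from the annotated transcript start, with the first upstream base as -1, it began at -35 in Mmp13, at -46 in Mmp3, and at -63 in both Mmp10 and Mmp7. Downstream of it stood a TATA motif, searched as TATAAA, which began at -16 in Mmp13, -7 in Mmp3, -29 in Mmp10 and -26 in Mmp7. Whether transcripts start at these annotated bases in 4T1 cells was not tested, so distances may not compare between genes. Within 250 bases upstream of the start, AP-1 was found in 4 of the 8 members with a window and not in Mmp14, Timp1, Timp2 or Timp3. Of all 32817 RefSeq windows of that length, 6.75% held AP-1 and 12.4% held TATAAA.

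The same pair of motifs was common along the cluster. Of its 10 genes, 7 held both AP-1 and TATAAA upstream of the gene start, and 3, namely Mmp12, Mmp8 and Mmp27, held neither. Mmp12 had an AP-1 motif at a second annotated start. Of the 7 with both, 3 fell and 4 (Mmp7, Mmp1a, Mmp1b and Mmp20) did not pass and were dim in both groups. The element was therefore shared by genes that fell and genes without a call. The motif AGGAAG, bound by the PEA3 group of ETS factors, stood in 29.5% of all windows. It occurred at 2 places in Mmp13, at 1 in Mmp3 and at none in Mmp10. Upstream of genes without a call it occurred at 2 places in Timp1. It stood at 1 place in Mmp14, Mmp7, Timp3, Mmp8, Mmp1b and Mmp12, and at none in Timp2, Mmp20, Mmp27 and Mmp1a. Its presence was therefore also shared by genes that fell and genes without a call. The NF-kB consensus stood in 3.90% of all windows and in none of these 14 genes.

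**Figure D4:**
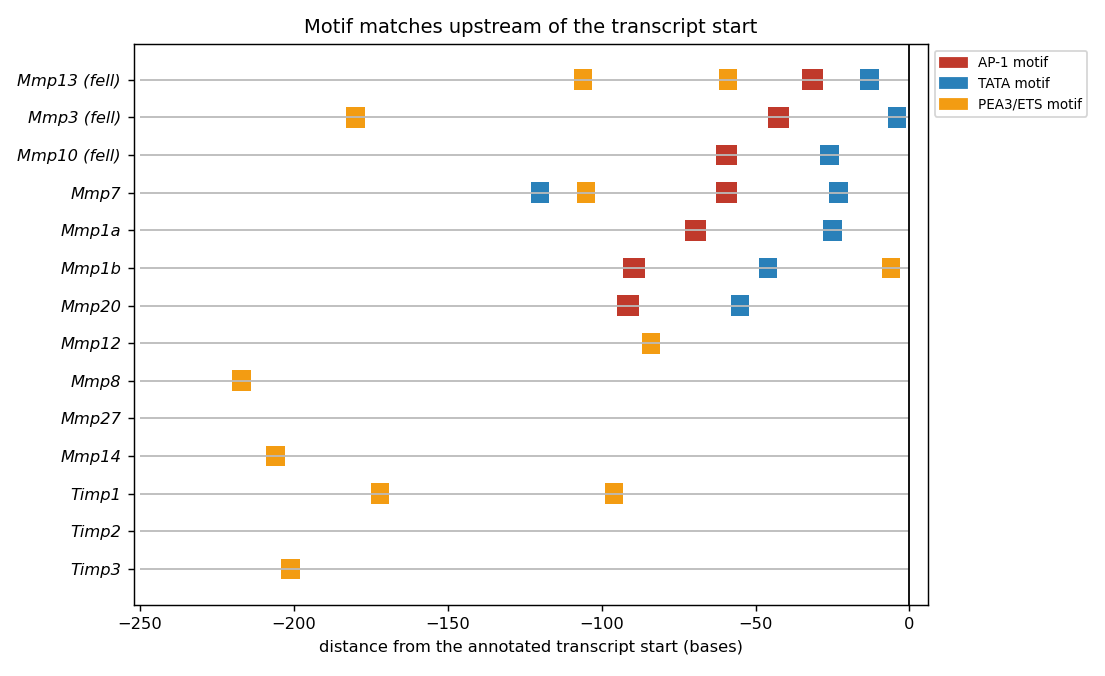
Matches to the AP-1, TATA and PEA3/ETS motifs in the 250 bases upstream of the annotated transcript start (0 on the horizontal axis, in bases) for the 8 members with a window and the 6 other genes of the cluster. AP-1 stands between -95 and -29 in 7 genes, of which Mmp13, Mmp3 and Mmp10 fell, and is not in the windows of Mmp14, Timp1, Timp2 and Timp3.

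Metalloproteinase transcription is known to respond to AP-1 and ETS factors and to inflammatory cytokines. Of 28 genes of such inputs, 25 were tested, with Fosl1, Runx2 and Nfkb1 not analysed here. Of the 25, 6 passed lower and 3 higher, beside 2.99% and 3.37% of all genes. Their median change was -0.22, beside 0.01 over all genes. At an unadjusted p under 0.05 in limma's test, 15 of the 25 passed, beside 21.5% of all genes. Il1a, the cytokine interleukin 1 alpha and a classical inducer of collagenase and stromelysin in fibroblasts, read 5.63 and 5.58 in shLDHA and 10.74 and 10.64 in scramble (log2 change -5.08, limma adjusted p = 8.32e-06). Its receptor gene Il1r1 moved the other way, at 6.68 and 6.45 in shLDHA and 5.85 and 5.79 in scramble (0.75, adjusted p = 0.0131). The cytokine gene Tnf fell (-0.59, adjusted p = 0.0187). Its mean of 3.62 in shLDHA lay under the olfactory receptor mark, and that of 4.20 in scramble lay at it. Relb, an NF-kB subunit, also fell (-0.93, adjusted p = 0.00501).

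The AP-1 subunits did not move as one. Junb (log2 change 0.03) and Fosb (0.02) did not pass, and Fosl1 was not analysed here. Jun, which forms dimers with Fos proteins, read 9.24 and 9.27 in shLDHA and 10.15 and 10.19 in scramble (log2 change -0.92, adjusted p = 0.00297). Fosl2 (-0.65, adjusted p = 0.0200) and Jund (-0.48, adjusted p = 0.0350) also fell. Fos rose, with a mean of 5.19 ± 0.27 in shLDHA and 4.44 ± 0.028 in scramble (SD, n = 2 each; log2 change 0.75, adjusted p = 0.0262). Of the ETS factors, Etv1 rose (0.47, adjusted p = 0.0281) and Etv4 missed the threshold (-0.41, adjusted p = 0.0501). Ets1 (-0.33), Etv5 (-0.18) and Ets2 (-0.02) did not pass either. The Jun and Relb calls were lost only when every probe was tested, and that of Il1r1 then and without shLDHA replicate 1. Tnf, Fosl2, Fos, Etv1 and Jund also lost theirs without at least 3 of the 4 arrays in turn.

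The gene whose pattern over the 4 arrays lay nearest to that of Mmp13 was the chemokine gene Ccl5, at a Euclidean distance of 0.11 between log2 values centred per gene. Csf3, the granulocyte growth factor gene, followed at 0.32, and the neutrophil chemoattractant genes Cxcl1 and Cxcl5 at 0.47 and 0.49. Ccl5 averaged 4.78 in shLDHA and 7.93 in scramble, a log2 change of -3.15 beside -3.22 for Mmp13. With 4 arrays in 2 groups, this likeness is almost wholly the size of the group difference.

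Metalloproteinase relatives outside the family showed single falls. Their counts stand beside 2.99% of all genes lower and 3.37% higher. Of 12 ADAM genes, 2 were lower and 0 higher, with a median change of -0.04. Many ADAM genes, though not all, encode membrane-bound proteases that shed cell surface proteins. Adam19 read 4.31 and 4.52 in shLDHA and 5.78 and 5.82 in scramble (log2 change -1.38, adjusted p = 0.00157). Adam8 read 7.26 and 7.41 in shLDHA and 8.16 and 8.19 in scramble (-0.84, adjusted p = 0.00548). Adam9 (-0.30, adjusted p = 0.0947) and Adam15 (-0.11) did not pass. Adam17, the sheddase of tumour necrosis factor and a target of TIMP3, changed by 0.02 (SE 0.09) and did not pass. Of 18 tested genes of the ADAMTS family, secreted proteases of proteoglycans and procollagens, 1 was lower and 0 higher. This was Adamts1, at 8.19 and 8.02 in shLDHA and 9.34 and 9.45 in scramble (-1.29, adjusted p = 0.00186). Adamts8 (-0.27), Adamts9 (0.22) and Adamts14 (-0.19) did not pass. At an unadjusted p under 0.05 in limma's test, 3 of the 12 ADAM genes and 2 of the 18 ADAMTS genes passed. The share of all genes was 21.5%.

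Among 26 genes that activate metalloproteinases or hold them at the cell surface, 24 were tested. Of these, 4 were lower and 1 higher, beside 2.99% and 3.37% of all genes. Their median change was -0.10. At an unadjusted p under 0.05 in limma's test, 10 of the 24 passed, beside 21.5% of all genes. Itga2, the collagen-binding integrin subunit through which collagen contact is known to induce collagenase, read 9.34 and 9.12 in shLDHA and 10.37 and 10.38 in scramble (log2 change -1.14, adjusted p = 0.00293). The plasminogen activator gene Plat (-0.62, adjusted p = 0.0146), the urokinase receptor gene Plaur (-0.57, adjusted p = 0.0159) and Cd44 (-0.51, adjusted p = 0.0185), a hyaluronan receptor that docks metalloproteinases at the membrane, also fell. Thbs1, which encodes thrombospondin 1, rose, at 9.37 and 9.32 in shLDHA and 8.06 and 8.16 in scramble (1.24, adjusted p = 0.00141). The calls of Plat, Plaur and Cd44 were lost without at least 3 of the 4 arrays in turn.

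Genes of matrix proteins that these enzymes can cut were mixed. Of 29 listed, 27 were tested, and 2 were lower and 2 higher, beside 2.99% and 3.37% of all genes. Their median change was -0.03. At an unadjusted p under 0.05 in limma's test, 9 of the 27 passed, beside 21.5% of all genes. Tnc, tenascin C, read 4.55 and 4.49 in shLDHA and 5.65 and 5.71 in scramble (log2 change -1.16, adjusted p = 0.00157). Col4a2, a basement membrane collagen chain, fell by less (-0.39, adjusted p = 0.0464). Postn, the matricellular protein periostin, rose, at 4.22 and 4.14 in shLDHA and 2.64 and 2.44 in scramble (1.64, adjusted p = 0.000962). Its means of 4.18 in shLDHA and 2.54 in scramble both lay under the olfactory receptor mark, so the size of this change is uncertain. Col7a1, the anchoring fibril collagen, rose by 0.40 (adjusted p = 0.0423). The Col4a2 and Col7a1 calls were lost without any 1 of the 4 arrays.

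Fibroblasts, macrophages and neutrophils are common sources of these enzymes in tumours, so their markers were read beside the members. Of 9 fibroblast markers, 0 passed in limma's test at an adjusted or an unadjusted p under 0.05, beside 6.36% and 21.5% of all genes. Their mean log2 level was 3.62 and 3.64 in shLDHA and 3.64 and 3.70 in scramble. In both groups 7 of the 9 lay under the olfactory receptor mark, among them the matrix genes Dcn, Lum, Col1a1 and Col3a1, which read from 2.17 to 3.53 in shLDHA and from 2.07 to 3.68 in scramble. The exceptions were Pdgfra, a growth factor receptor, at 6.38 and 6.61 in shLDHA and 6.53 and 6.50 in scramble, and the smooth muscle actin gene Acta2, at 4.46 and 4.65 in shLDHA and 4.41 and 4.62 in scramble. The smallest p values of the list belonged to Fap (-0.30), Thy1 (-0.20), Pdgfrb (0.13) and Dcn (0.07). Of 12 macrophage and neutrophil markers, 1 passed, Cd68, a lysosomal protein, at 6.45 and 6.64 in shLDHA and 7.44 and 7.48 in scramble (log2 change -0.91, adjusted p = 0.00516). The mean level of this list was 3.50 and 3.45 in shLDHA and 3.59 and 3.58 in scramble. At an unadjusted p under 0.05, 2 of the 12 passed, Cd68 and Adgre1 (log2 change 0.26), beside 21.5% of all genes. In both groups 10 of the 12 lay under the mark, among them the defining Ptprc, Itgam, Csf1r and Adgre1, and the exceptions were Cd68 and the endotoxin co-receptor gene Cd14. Cd14 read 5.66 and 5.64 in shLDHA and 5.68 and 5.83 in scramble. The neutrophil genes Ly6g (-0.25) and S100a9 (-0.19) did not pass. Of 6 endothelial markers, 0 passed at an adjusted or an unadjusted p under 0.05, with mean levels of 3.12 and 3.08 in shLDHA and 3.02 and 3.06 in scramble, and all 6 lay under the mark in both groups. The smallest p values of that list belonged to Vwf (0.27), Tek (0.10), Pecam1 (0.09) and Cdh5 (-0.08).

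**Figure D5:**
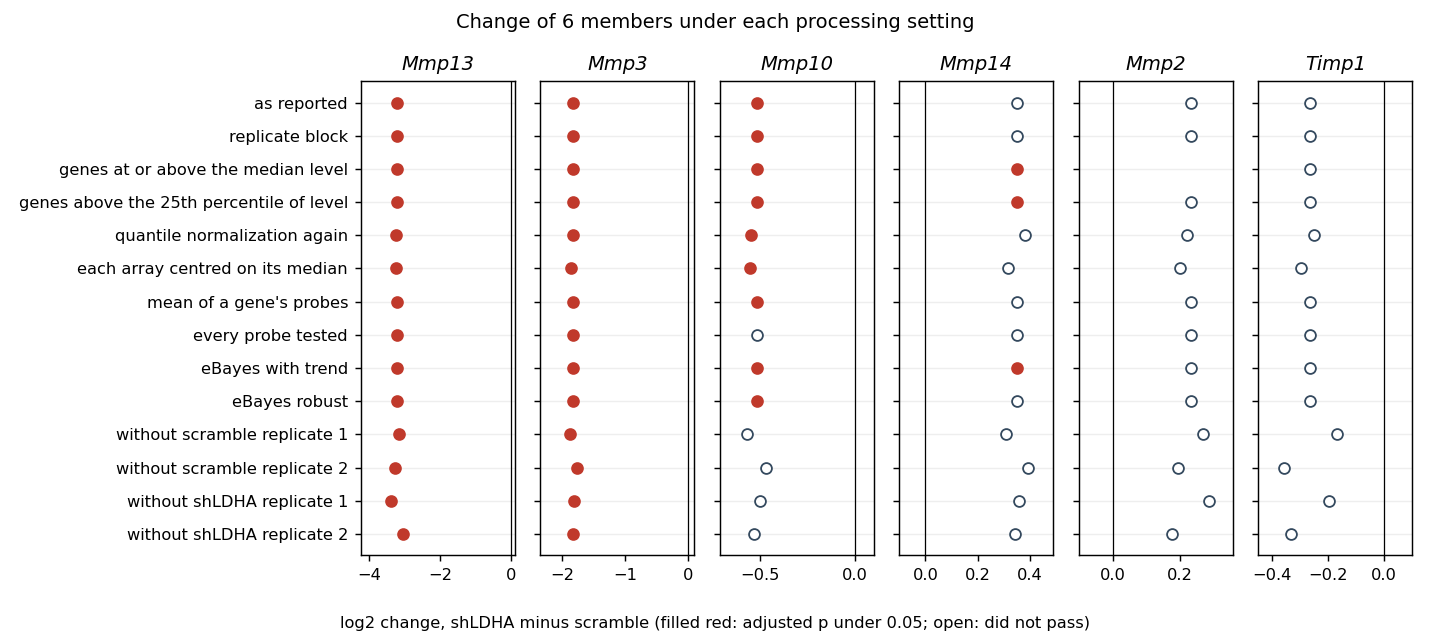
Log2 change (shLDHA minus scramble, horizontal axes on their own scales) of 6 members under the reported setting and 13 alternatives (rows). Filled red points have an adjusted p under 0.05 and open points did not pass, and a missing point means that the gene was outside the filter. Mmp13 and Mmp3 pass in every row, Mmp10 in the reported setting and 8 of 13 alternatives, Mmp14 in 3, and Mmp2 and Timp1 in none.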

How the data were processed

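The authors deposited log2 expression values for 41345 probe sets on 4 arrays, for which the submitters' processing notes name RMA and R 3.4.0; their annotation version is not given in the sources used. Groups and replicate numbers came from the sample titles. A platform table gave 1 symbol for 23521 probes; several symbols (1814) or none (16010) kept a probe out. The probe with the highest mean represented a gene, which left 22180 genes. limma 3.58.1 in R 4.3.3 compared the groups, two-sided, with no covariate and no filter on dim genes, with Benjamini-Hochberg adjustment over all genes. Adjusted p values in the text are from this fit. It had 2 residual and 4.52 prior degrees of freedom. Simulated data for this comparison had 22180 genes, of which 200 were changed, while 1410 passed in the real data. On these the fit recovered 9.55%, 89.3% and 99.8% of genes changed by 0.5, 1 and 2 on the log2 scale. These shares may differ where more genes change. Arrays have no read depth, and their number limits the precision.

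Named were all members and the rest of their family. In each gene list, those past the threshold or with the smallest p were named, up to 4 where fewer passed. Other markers, Adam17 and Etv4 were added after their values were seen. Junb, Fosb, Ets1, Ets2 and Etv5 were also added then, outside the counts over settings. The members and lists were chosen with earlier results of these data known. Same-numbered replicates did not deviate together across genes (r = -0.03), so they were not treated as pairs. Figures were drawn with matplotlib 3.10.9.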

Additional observations from a re-analysis of the deposited data

How the results depend on the processing

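Mmp13 and Mmp3 passed under all 13 alternatives, and the change of Mmp10 kept its sign under all 13. With the replicate number as a block, the members' count stayed at 3, while 838 genes passed in place of 1410 and Ldha, at the same change of -0.59, had an adjusted p of 0.0734. With every probe of the array tested, 128 probes passed, 86 lower and 42 higher. The 5 context lists and the rest of the family then had 6 calls in place of 21, and Mmp10 (-0.52, adjusted p = 0.118) and Ldha (-0.59, adjusted p = 0.168) did not pass. Among genes at or above the median level, 2836 genes and 32 list genes passed, and with a variance trend 2806 and 36, and at an adjusted p under 0.1, 2391 genes passed. Mmp14 (0.35) passed under these 3 and among genes above the 25th percentile of level. Leaving out 1 array gave 370 to 636 genes, 11 to 13 list genes, an Ldha change of -0.73 to -0.45 and an Mmp10 change of -0.57 to -0.47; the lone array of a group is then assumed to vary like the others, with 1 residual degree of freedom. Over the other named genes, 30 that passed and 37 that had not, a call was lost 74 times and gained 13 times across the alternatives and the adjusted p under 0.1. No change of a gene that passed reversed its sign, while among genes that had not passed, 3 members (Mmp7, Timp2 and Timp3) and 11 of 37 others did under at least 1 alternative, never with a call. The small number of arrays limits all of this, and signal near the olfactory receptor mark limits Mmp2, Mmp7, Timp3, Postn and Tnf. The shLDHA levels of Mmp13, Adam19 and Tnc lay just above the mark, so the sizes of their falls are also uncertain.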
